A study of Mus musculus with 12 samples.

Results

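H3K9me3 in the liver of newborn mice was compared between Alb-D2KO and control animals at post-natal day 1 (P1). The members were the peaks on the 19 autosomes in 2 deposited lists, each called over its own input: 235187 peaks in Alb-D2KO and 247677 in control, together 482864 of the 1667636 peaks in the 6 such lists of the series. They were compared as covered bases in windows of 100 kb and as covered bases per gene, in both directions, and all values below are covered lengths unless another scale is named.

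Animals are labelled C57BL/6, and the methods give C57BL/6J. Alb-D2KO mice carried floxed Dio2 and Cre-recombinase driven by the albumin promoter, so the inactivation was limited to hepatocytes, and the controls are named Cre in the labels. The methods describe P1 samples as pools of 3 livers, which hold every cell type of the organ. In bulk liver, a change in the share of a cell type and a change in the mark within its cells cannot be told apart. The labels give 1 H3K9me3 library and 1 input per genotype, at P1, P5 and in the adult. The methods name more pooled P1 samples than this, and repeated sequencing, without saying how they entered the lists. The difference between genotypes therefore had no replicate check, and no p-value was computed. Depth is unknown, since read totals are not part of the lists.

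H3K9me3, the trimethylated form of lysine 9 on histone H3, marks closed chromatin. Methyltransferases such as SUV39H and SETDB1 deposit it, and it covers satellite repeats, transposons and clusters of genes that a tissue keeps silent, such as olfactory and vomeronasal receptor genes in liver. The D2 deiodinase, encoded by Dio2, converts T4 to the active hormone T3, which binds thyroid hormone receptors on chromatin. The comparison asked where H3K9me3 differs in newborn liver when hepatocytes lack D2.

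The sequences below come from the strongest peaks found in 1 genotype only, from the strongest peak found in both, and from the locus that differed most. They were read from RefSeq GRCm38.p6, which is the mm10 build, on the plus strand. Capitals mark bases outside the repeats that the reference masks, so a sequence in lower case alone is repeat throughout.
Alb-D2KO only, chr6:144840191-144840490, the central 300 bases of an intergenic peak: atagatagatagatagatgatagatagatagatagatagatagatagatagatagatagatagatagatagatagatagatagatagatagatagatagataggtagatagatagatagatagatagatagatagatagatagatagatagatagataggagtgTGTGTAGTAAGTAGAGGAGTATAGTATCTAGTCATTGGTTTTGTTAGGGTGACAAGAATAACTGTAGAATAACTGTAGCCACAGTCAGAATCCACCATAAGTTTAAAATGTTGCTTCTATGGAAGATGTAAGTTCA
Control only, chr6:135466056-135466257, an intergenic peak: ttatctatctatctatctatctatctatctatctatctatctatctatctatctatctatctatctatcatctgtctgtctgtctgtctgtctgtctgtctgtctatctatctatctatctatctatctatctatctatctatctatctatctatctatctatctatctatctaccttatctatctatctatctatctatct
Control only, chr4:130947841-130948029, a peak in an intron of Matn1: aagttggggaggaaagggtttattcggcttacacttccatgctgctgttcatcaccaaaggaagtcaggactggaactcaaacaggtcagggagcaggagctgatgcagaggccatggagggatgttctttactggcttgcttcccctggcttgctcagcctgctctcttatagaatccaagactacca
Both genotypes, chr2:98666626-98666925, the central 300 bases of a peak at the start of Gm10800: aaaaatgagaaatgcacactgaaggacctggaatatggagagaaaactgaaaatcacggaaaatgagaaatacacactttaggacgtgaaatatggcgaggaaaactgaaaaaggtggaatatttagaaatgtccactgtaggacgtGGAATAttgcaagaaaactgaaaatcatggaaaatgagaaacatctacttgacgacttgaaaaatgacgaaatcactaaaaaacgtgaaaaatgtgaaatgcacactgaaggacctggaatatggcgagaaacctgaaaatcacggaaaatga
Alb-D2KO only in the Skint cluster, chr4:112379904-112380203, the central 300 bases of an intergenic peak: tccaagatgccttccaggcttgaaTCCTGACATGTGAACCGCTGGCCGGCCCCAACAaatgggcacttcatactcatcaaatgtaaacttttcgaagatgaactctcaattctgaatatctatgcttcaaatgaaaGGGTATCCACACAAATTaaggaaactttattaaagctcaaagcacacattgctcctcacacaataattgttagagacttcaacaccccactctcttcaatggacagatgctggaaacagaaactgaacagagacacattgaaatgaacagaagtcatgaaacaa

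The control only peak on chromosome 6 was an array of a 4-base unit, and the Alb-D2KO only peak there held such an array beside unmasked bases. The most frequent 12-base word of the control peak, TATCTATCTATC, was counted on both strands with overlaps. It occurred 31 times in the printed Alb-D2KO bases and 34 times in the control peak. A 300-base stretch at the start of each window of the genome held it in 107 of 23959 cases, or 0.447%. The word was picked from the control peak, so its excess there was fixed by the choice. Among peaks with a −log10 p above 4, few held it in the 300 bases about their center. These were 2 of 19 Alb-D2KO only and 1 of 17 control only peaks. Of the shared peaks, 12 of 418 in Alb-D2KO and 12 of 422 in control held it. The Matn1 peak was masked as repeat over 100% of its bases. The peak found in both genotypes was built of the pericentromeric major satellite, the classic substrate of H3K9me3 in the mouse. Its own most frequent 12-base word, GAAAACTGAAAA, occurred 3 times in the printed bases, and 10 of the 23959 stretches, or 0.0417%, held at least 1 copy.

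Ranked by −log10 p, the strongest peaks of the lists were shared. At Gm10800 the −log10 p, as MACS2 averaged it over the peak, was 1962 in Alb-D2KO and 1603 in control, with a fold enrichment over input of 1.89 and 1.77. Satellite peaks at Gm11168 on chromosome 9 (chr9:3000261-3004814) and in an intron of Gm33838 (chr9:35305245-35305575) followed in both lists. The leading peaks found in 1 genotype only had a far lower −log10 p but a higher fold enrichment. The pileup signal at Gm10800 was 22547 in Alb-D2KO and 21843 in control. The Alb-D2KO peak on chromosome 6 had a −log10 p of 11.8, a fold enrichment of 3.79 and a pileup of 26.2, and ranked 103 in its list. The control peaks on chromosome 6 and in Matn1, which encodes a cartilage matrix protein, had a −log10 p of 12.6 and 11.6. Their fold enrichment was 3.42 and 4.01 and their pileup 42.4 and 29.2, and they ranked 91 and 101.

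Some of these narrow sites kept to their genotype at P5. The Alb-D2KO peak on chromosome 6 was listed again in Alb-D2KO at P5, with a −log10 p of 3.95, and in no control list. The control peaks on chromosome 6 and in Matn1 were listed in control at P5, with a −log10 p of 8.34 and 7.36, and in no Alb-D2KO list. None of these 3 was listed in the adult. The next Alb-D2KO only peak, at the start of the bitter taste receptor gene Tas2r134 (chr2:51626682-51627248), had a −log10 p of 11.2 at P1 and was listed in control at P5 with 3.25. The third Alb-D2KO only peak (chr11:51808722-51808922), with a −log10 p of 8.73, was in no other list. The third control only peak, in an intron of Gm4230, with 11.4, was in neither P5 list and in both adult lists, with 2.32 for Alb-D2KO and 1.84 for control. Of 14 reference stretches of 100 bases from the Alb-D2KO peak on chromosome 6, 6 mapped with quality 0 or not at all. So did 4 of 6 and 5 of 5 from the control peaks on chromosome 6 and in Matn1. The part of ambiguous or failed mapping in these differences was not tested.

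The lists as a whole were close in total cover. Peaks covered 472 Mb in Alb-D2KO against 461 Mb in control, or 19.2% and 18.7% of the autosomes. They shared 291 Mb, which was 61.7% of the Alb-D2KO bases and 63.1% of the control bases. Of the Alb-D2KO peaks, 65.0% (95% Wilson interval, counting error only, 64.8 to 65.2%) overlapped a control peak, and of the control peaks 64.5% (64.3 to 64.7%) overlapped an Alb-D2KO peak. A peak with no partner had a median width of 550 bp in Alb-D2KO and 531 bp in control, against 1617 and 1527 bp for peaks with a partner. None of the 995 Alb-D2KO peaks and none of the 829 control peaks of 20 kb or wider lacked a partner. Any overlap made a partner, so a wider peak is more likely to have one through its width alone. The share of overlap expected by chance was not computed, so these values do not measure agreement beyond it. On chromosome Y, which was left out, the lists held 14528 and 6329 peaks, and the sex of the pooled pups is not in the labels.

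Most windows held the mark to the same extent in both genotypes. A window was tested when the mean of both covers was at least 10 kb, and 9835 of the 24620 windows entered. A window was called when its cover, with 5 kb added, was at least 2 times that of the other genotype. Of the 9835 windows, 8 were called higher in Alb-D2KO (0.0813%) and 4 higher in control (0.0407%), while 8549 (86.9%) lay within 1.25-fold. The difference, Alb-D2KO minus control, had a median of 0.977 kb, and 90% of windows lay between −7.74 and 10.5 kb. At P5 the same rule called 17 of 10749 windows higher in Alb-D2KO (0.158%) and 5 higher in control (0.0465%). The adult lists gave 75 (0.614%) and 16 (0.131%) of 12210. Between ages within control, of 10304 windows 5 were higher at P1 (0.0485%) and 37 at P5 (0.359%), and within Alb-D2KO, of 10314 windows, 7 (0.0679%) and 34 (0.33%).

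**Figure D1:**
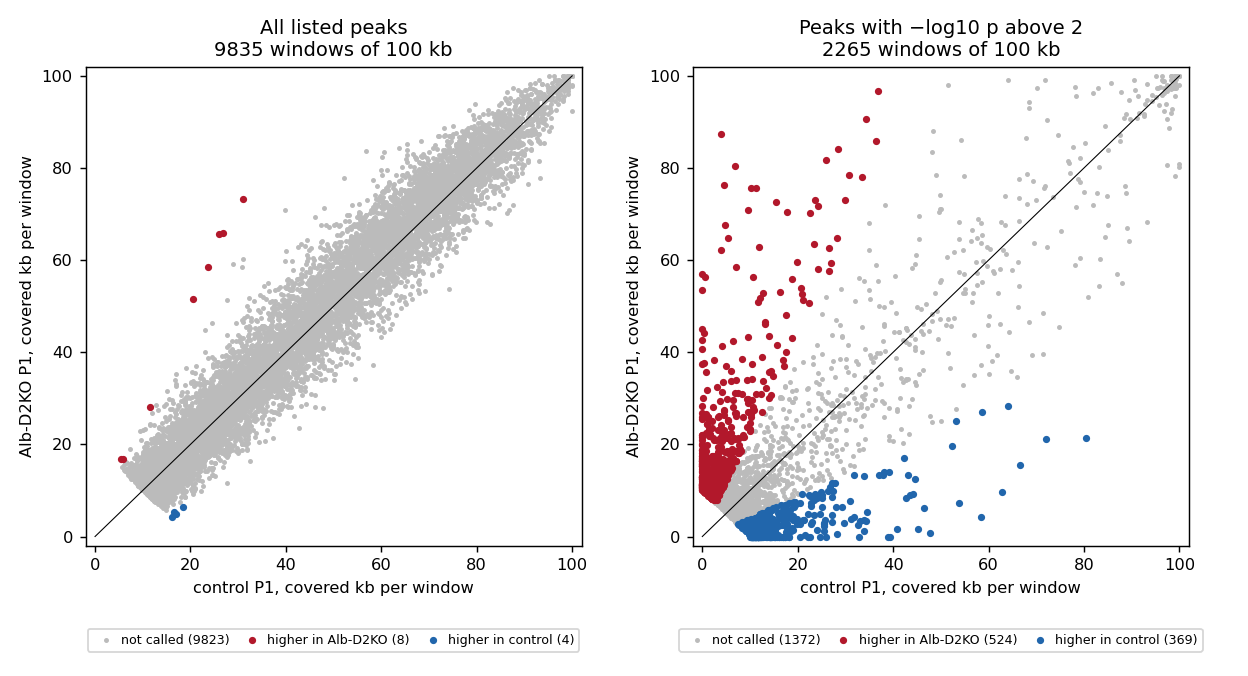
Covered length per 100-kb window at P1, control on the x axis and Alb-D2KO on the y axis, in kb; each point is a window and the line marks equal cover. With all listed peaks (left) the windows follow the line, with 8 called higher in Alb-D2KO and 4 in control, and with peaks of −log10 p above 2 (right) 524 and 369 of 2265 windows were called.

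Of the 8 windows higher in Alb-D2KO, 5 lay in the Skint cluster on chromosome 4, and these had the 5 largest differences of all tested windows. Skint genes encode membrane proteins of the immunoglobulin superfamily, of which Skint1 is known for selecting gamma-delta T cells of the skin, and they are not genes of hepatocyte function. The window from 112.5 to 112.6 Mb, with Skint2 and the pseudogene Gm12814, was covered over 73.3 kb in Alb-D2KO against 30.9 kb in control. The window from 112.4 to 112.5 Mb, with Skint9, held 65.7 and 25.9 kb, and that from 112.1 to 112.2 Mb, with Skint4, held 65.9 and 26.9 kb. The window from 112.2 to 112.3 Mb, with Skint3, held 51.6 and 20.5 kb, and that from 113.3 to 113.4 Mb, with Gm12813, held 58.5 and 23.6 kb.

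The stretch chr4:112000001-113400000, from the window where Skint1 begins to the one before that of Skint5, was described as a whole, and its bounds were set after its values were seen. Its peaks covered 893 kb (63.8% of the stretch) in Alb-D2KO against 520 kb (37.1%) in control, a ratio of 1.72, and all 14 of its windows were higher in Alb-D2KO. The number of peaks hardly differed, 329 and 324, while their median width was 1763 bp in Alb-D2KO and 954.5 bp in control. Over the whole lists the median width was 1016 and 962 bp. The median −log10 p of the peaks in the stretch was 1.61 and 1.56, against 1.504 and 1.51 over the whole lists, and their median fold enrichment was 1.88 and 1.85, against 1.81 in both lists. Of the cover, 103 kb in Alb-D2KO against 47.5 kb in control lay in peaks with a −log10 p above 2. The strongest peak with no control partner there, printed above, had a −log10 p of 2.30.

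The difference was wide in some Skint genes and narrow in others. Skint4 (chr4:112072016-112168076, plus strand) was covered over 61.6 kb of its body in Alb-D2KO against 26.1 kb in control. Skint3 held 29.8 and 12.3 kb, and Skint9 held 33.2 and 12.99 kb. The large Skint6 gene, 482 kb long, held 279 and 154 kb, and Skint2 held 67.9 and 44.8 kb. Outside the stretch, Skint5 held 460.0 and 396.3 kb. Skint11 held 72.96 and 56.9 kb, and Skint8 held 19.7 and 13.9 kb. Skint10 (59.2 and 53.8 kb), Skint7 (10.9 and 10.05 kb) and Skint1 (17.5 and 17.99 kb) were near equal. Of the 11 Skint genes, 10 were covered more in Alb-D2KO and 1, Skint1, more in control. The windows of 112.6 to 112.8 Mb, over Skint2 and Skint10, were dense in both genotypes, with 81.5 and 85.4 kb in Alb-D2KO and 74.0 and 80.6 kb in control, so the gap was on both sides of a stretch that was nearly alike. The difference ran past the bounds of the stretch: of the 11 flanking windows in the plot of cover along the locus, 10 were higher in Alb-D2KO at P1, with a median difference of 5.94 kb, 11 at P5 (15.2 kb) and 10 in the adult (7.40 kb).

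The 5 windows were called from the P1 lists alone, and all 5 were again higher in Alb-D2KO in the P5 lists, with 61.0 to 87.6 kb against 7.90 to 22.4 kb in control. At P5 the stretch was covered over 1080 kb in Alb-D2KO against 394 kb in control, a ratio of 2.74, with all 14 windows higher in Alb-D2KO. In the adult it was covered over 769 and 230 kb, a ratio of 3.34, with 13 windows higher. Skint4 was covered over 84.2 kb in Alb-D2KO against 16.7 kb in control at P5, and over 59.2 and 9.75 kb in the adult. Skint9 was covered over 40.9 and 7.17 kb at P5 and 31.95 and 1.81 kb in the adult. Of the 9835 windows, 103 were at least 1.5-fold higher in Alb-D2KO at P1, 17 of these also at P5, and 10 also in the adult. All 10 lay in this stretch. Of the 84 windows that were 1.5-fold higher in control at P1, 2 were so at P5 and 0 in the adult. At 1.25-fold, 702 windows were higher in Alb-D2KO at P1, 100 of these also at P5 and 21 at all 3 ages, of which 12 lay in the stretch and 9 outside it. At 1.25-fold in control the counts were 584, 59 and 9. In peaks with a −log10 p above 2 the stretch held 72.2 kb in Alb-D2KO against 75.9 kb in control at P5, so the P5 gap was in the weaker peaks, and 181 and 28.7 kb in the adult.

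Reference stretches of 100 bases from these 14 windows mapped with quality 0 or not at all in 23 of 280 cases, or 8.21%. In the tested windows that were mapped the share was 17.7%. These took in every window tested above the limit of 2, where the share was 19.7%, so they are not a random sample of tested windows. The background that MACS2 set for a peak, worked out from its pileup and fold enrichment, had a median of 2.02 in this stretch and 2.06 in the whole list in Alb-D2KO, and of 1.98 and 2.03 in control. MACS2 never lets it fall below a value set for the whole genome, and the lowest 1% of peaks stood at 1.99 and 1.97, so fewer input reads here would not show in it. The cause of the difference was not tested.

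**Figure D2:**
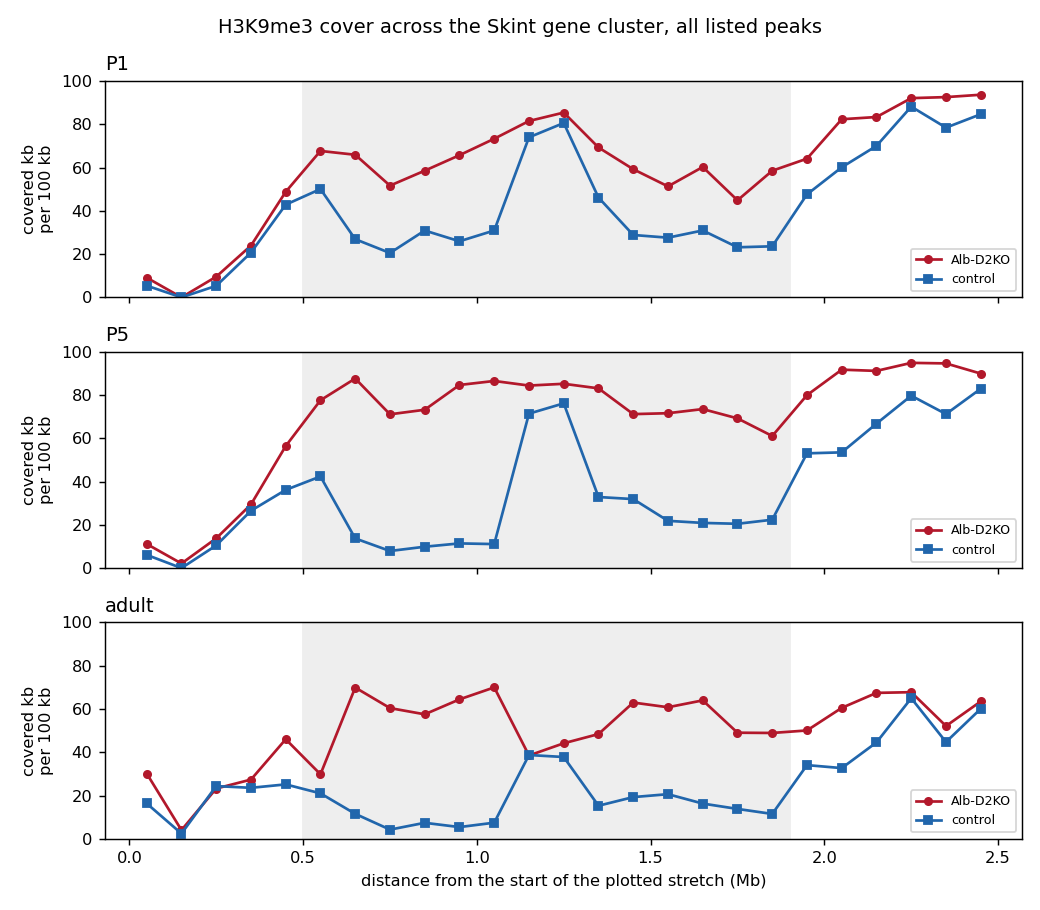
Covered kb per 100-kb window (y axis) against distance from the start of a 2.5-Mb stretch of chromosome 4 (x axis, Mb) at P1, P5 and in the adult, 1 library per point; the shaded part is the 1.4 Mb described in the text. In the shaded part, Alb-D2KO lies above control on both sides of a short stretch where the 2 lie closer, at all 3 ages. That short stretch is dense in both genotypes at P1 and P5.

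The other called windows differed less at P5 or turned. A window on chromosome 1 with Mroh9 (163.0 to 163.1 Mb) held 28.2 kb in Alb-D2KO against 11.6 kb in control at P1, and 25.3 and 24.997 kb at P5. One on chromosome 14 with Armh4 held 16.8 and 5.35 kb, then 13.7 and 23.0 kb at P5. One on chromosome 3 with Tnni3k, a heart kinase gene, and Lrriq3 held 16.8 and 5.80 kb, then 13.1 and 17.3 kb. Higher in control at P1 was a window on chromosome 2 with Arhgap15, with 16.5 kb in control and 5.24 kb in Alb-D2KO. A window on chromosome 13 with Xrcc4, a DNA repair gene, held 16.0 and 4.21 kb. Windows without genes on chromosomes 15 (43.6 to 43.7 Mb) and 13 (83.3 to 83.4 Mb) held 18.5 and 16.9 kb in control against 6.36 and 4.94 kb. All 4 of these were covered more in Alb-D2KO at P5.

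A Tdpoz stretch on chromosome 3 held the largest difference outside the Skint cluster, 31.0 kb in the window from 94.1 to 94.2 Mb. Tdpoz genes encode speckle-type proteins with a TRAF and a POZ domain, and are known from oocytes and early embryos. The 7 windows of chr3:93600001-94300000, from that of Tdpoz2 to that of Gm4778 and again chosen after the values were seen, were covered over 442 kb in Alb-D2KO against 288 kb in control at P1, and over 404 and 332 kb at P5. The adult lists held 256 and 267 kb there. In peaks with a −log10 p above 2 they held 189 and 24.7 kb at P1, 154 and 42.7 kb at P5, and 62.3 and 75.2 kb in the adult. Tdpoz4 was covered over 1.11 kb, its whole body, in Alb-D2KO against 0 kb in control, and Tdpoz3 over 1.10 kb in both. Of 40 reference stretches from the 2 windows of Tdpoz4 and Tdpoz3, 19 (47.5%) mapped with quality 0 or not at all. None of these windows passed the 2-fold rule with all listed peaks.

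The picture changed when only peaks with a −log10 p above 2 were counted, the limit the study's methods use for their comparison lists. These were 15654 peaks and 57.3 Mb in Alb-D2KO, and 16855 peaks and 54.1 Mb in control. A window entered at a mean cover of 5 kb, and 2 kb was added before the fold. Of the 2265 windows, 524 (23.1%) were then called higher in Alb-D2KO and 369 (16.3%) higher in control. Of the 10 windows with the largest difference in Alb-D2KO, 4 held vomeronasal receptor genes, the pheromone receptors of the nose, which are silent in liver. Vomeronasal genes or pseudogenes stood in 190 of all 2265 windows tested (8.39%). Of all 524 windows called higher in Alb-D2KO, 34 (6.49%) held them, a smaller share. A window on chromosome 7 with Vmn2r67 (85.1 to 85.2 Mb) held 87.3 kb in Alb-D2KO against 3.87 kb in control. One with Vmn2r50 and Vmn2r51 held 80.5 and 6.78 kb, and one on chromosome 17 with Vmn2r95 held 96.7 and 36.9 kb. The window with Tdpoz3 held 75.8 and 10.3 kb, and one with the androgen-binding protein gene Scgb1b29 held 67.6 and 4.81 kb. Of the 10 leading windows higher in control, 2 held vomeronasal genes or pseudogenes. One with Vmn2r48 and Vmn2r49, next to that of Vmn2r50, held 53.8 kb in control and 7.30 kb in Alb-D2KO. One of the immunoglobulin heavy chain locus with Ighv1 gene segments held 47.7 and 0.718 kb, and a pair of neighbors on chromosome 4 (143.6 to 143.8 Mb) held 66.6 and 62.7 kb against 15.6 and 9.63 kb.

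Apart from the window with Tdpoz3, which held 83.6 kb in Alb-D2KO against 56.9 kb in control with all listed peaks, the windows just named were nearly alike once weaker peaks were counted. The window of Vmn2r67 held 92.2 kb in Alb-D2KO against 91.2 kb in control with all listed peaks, and its mean −log10 p was 2.06 and 1.93, on opposite sides of the limit. The window of Vmn2r50 held 93.2 and 92.9 kb, with a mean −log10 p of 2.02 and 1.95. That of Vmn2r48 and Vmn2r49 held 95.2 and 93.9 kb, with 1.98 and 2.06. Over the 524 windows higher in Alb-D2KO, the median cover with all listed peaks was 74.97 kb in Alb-D2KO against 72.7 kb in control, and over the 369 windows higher in control it was 74.6 and 72.9 kb. Only 2 of the 524 and 1 of the 369 were also at least 1.5-fold different, in the same direction, with all listed peaks. The 2 held Skint6 (113.2 to 113.3 Mb, 44.9 and 23.1 kb) and Gm4778 with other Gm genes at the edge of the Tdpoz stretch (51.9 and 32.2 kb), and the 1 higher in control held Dnah7a, a dynein gene (18.7 and 30.8 kb). Peaks with a −log10 p between 1.9 and 2.1 made up 12.2% of the covered length in Alb-D2KO and 11.7% in control.

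The P5 libraries did not keep the directions of these calls. Of the 524 windows higher in Alb-D2KO at P1, 270 were covered more in Alb-D2KO and 231 more in control at P5, in peaks above the limit. Of all 2265 windows tested, 1134 were covered more in Alb-D2KO and 1059 more in control. Of the 369 windows higher in control at P1, 160 were covered more in control at P5 and 194 more in Alb-D2KO. Calls of similar number came from 1 genotype at neighboring ages: of 2198 windows tested in control, 518 (23.6%) were higher at P1 and 427 (19.4%) higher at P5, and of 2337 in Alb-D2KO, 602 (25.8%) and 436 (18.7%). The genotypes at P5 gave 459 (21.1%) and 390 (17.9%) of 2177 windows in the 2 directions, and the adult lists 537 (10.3%) and 680 (13%) of 5229.

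**Figure D3:**
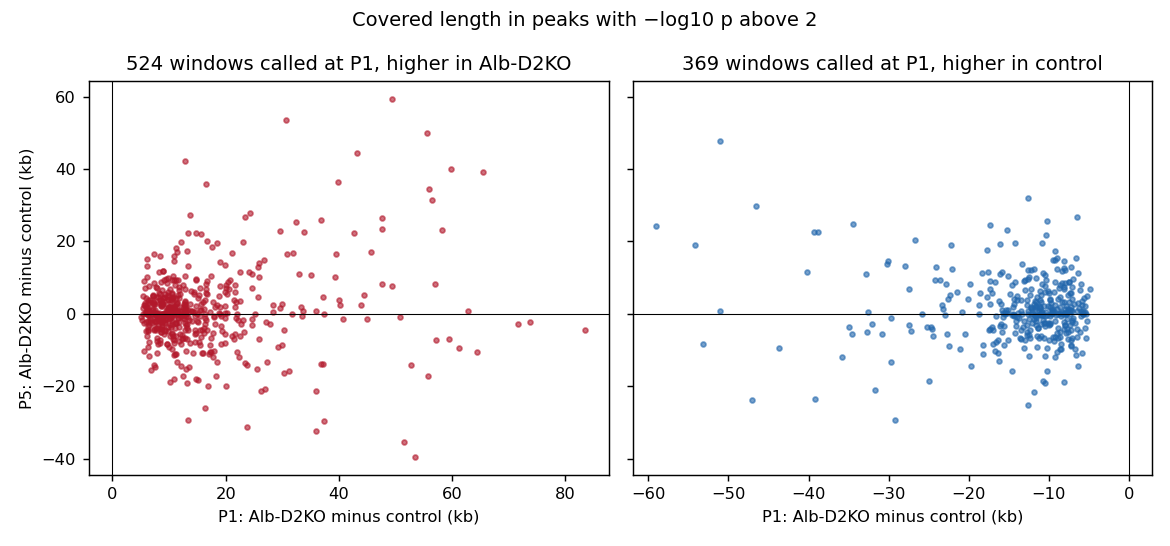
Difference in covered kb, Alb-D2KO minus control, at P1 (x axis) and P5 (y axis) for windows called at P1 in peaks with −log10 p above 2; each point is a window. At P5 the points lie on both sides of 0, with 270 of 524 windows (left) and 194 of 369 (right) covered more in Alb-D2KO.

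The called windows were alike in sequence in both directions. Those higher in Alb-D2KO had a median GC content of 37.6% and those higher in control 37.8%, against 38.8% in the 1372 windows tested and not called and 41.4% over the genome. The reference masked 47.6%, 48.6% and 47.7% of their bases as repeats, against 31.7% over the genome. Vomeronasal genes stood in 34 of the 524 windows (6.49%), 20 of the 369 (5.42%) and 136 of the 1372 (9.91%). Genes named Zfp stood in 5, 2 and 85 windows, so 85 of the 92 such windows were among those not called. Of the windows higher in Alb-D2KO, 96 (18.3%) lay on chromosomes 7 and 17, as did 40 (10.8%) of those higher in control and 273 (19.9%) of those not called.

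Among the 100 windows with the most cover, the 5 most alike were covered from end to end. Cover of a window cannot pass 100 kb, so these were ties at the ceiling, where a further difference could not show. The window from 145.6 to 145.7 Mb on chromosome 4, with Zfp980, and that from 147.3 to 147.4 Mb, with Zfp988 and Zfp978, were covered over 100 kb in both genotypes at both limits. These are KRAB-type zinc finger clusters, a known home of H3K9me3. Windows at Gm6367 on chromosome 5, at the homeobox genes Obox1 and Obox2 on chromosome 7, and at the placental prolactin-family gene Prl2c3 on chromosome 13 were also covered over 100 kb in both. The mean −log10 p there was between 2.50 and 5.24 in Alb-D2KO and between 2.51 and 4.87 in control, above the limit in each window.

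By the gene name that the lists give to a peak, 693 of the 5511 genes with a mean of at least 5 kb were called higher in Alb-D2KO (12.6%) and 587 higher in control (10.7%), with 1 kb added and the same 2-fold rule. Counted inside the annotated gene body, 32 of 3398 genes (0.942%) and 35 (1.03%) were called. The lists assign a wide peak to a single gene, and the same domain could stand under different names in the 2 lists. Vmn1r155, a vomeronasal receptor gene of 0.924 kb, was assigned 281 kb in Alb-D2KO against 23.3 kb in control, but its body was covered in full in both. Over the 281-kb span of those peaks, 281 kb were covered in Alb-D2KO against 273 kb in control. Prl2c3 was assigned 144 kb in Alb-D2KO against 55.8 kb in control, and its neighbor Prl2c2 30.3 and 216 kb, while the span of the Prl2c2 peaks was covered over 219 and 220 kb. Obox2 was assigned 0 kb in Alb-D2KO against 141 kb in control over a span that was covered whole in both, and Obox4-ps23, beside it, 224 and 67.6 kb. Zfp984 was assigned 0 and 65.5 kb, and its body was covered over 54.9 and 53.8 kb.

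With all listed peaks, the remaining genes that differed most by name were of the same kind. Higher in Alb-D2KO were Gm7663, Gm49697, Gm7971, Gm7682, Gm18059, Vmn1r-ps83 and Gm44952. Higher in control were Gm4526, Gm3183, Gm3139, Gm19900, Gm6205, BC080696 and Vmn1r255. Over the spans of the 20 genes, the cover in Alb-D2KO was between 0.942 and 1.12 times that in control. Of the 20, 8 were on chromosome 7 and 7 on chromosome 5, in dense gene families. Of the 660 genes called higher in Alb-D2KO by name that had a matching body, 43 were 2-fold higher within it, and of the 563 called higher in control, 37 were.

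**Figure D4:**
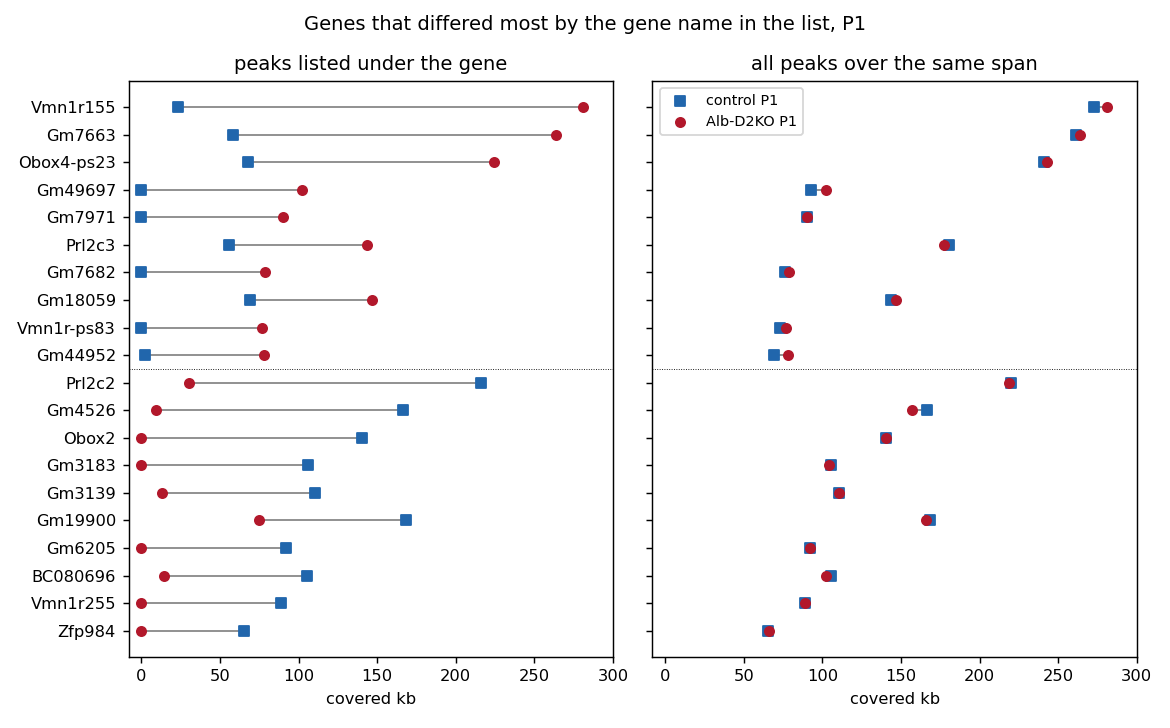
Covered kb at P1 for the 20 genes that differed most by listed gene name, 10 in each direction (above and below the dotted line). Left, peaks listed under the gene, which differ widely, as in Vmn1r155 with 281 kb in Alb-D2KO against 23.3 kb in control; right, all peaks over the same span, where the 2 genotypes nearly coincide.

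In peaks with a −log10 p above 2, 632 of 1954 genes (32.3%) were called higher in Alb-D2KO by name and 591 (30.2%) higher in control. Genes added to those above were Gm18784 (111 and 3.40 kb) and Vmn2r-ps57 (130 and 51.6 kb) in Alb-D2KO, and Zfp808 in control (29.8 kb in Alb-D2KO against 94.9 kb in control). Alike at that limit were the liver drug-metabolizing gene Cyp3a41a, with 60.9 kb in both, Gm13246, Gm13241, BC002059 and Zfp993, with 53.8 and 54.1 kb. Alike with all listed peaks were long genes of neurons: Nrg3, a neuregulin, with 562.6 and 562.4 kb, Khdrbs2 with 230.7 and 230.6 kb, Lrrtm4, Nav3, and the transcript Gm11867.

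Within gene bodies, a ranking made after the values were seen was led by the Skint cluster when all listed peaks were counted. Skint4, Skint9 and Skint3 came first in Alb-D2KO, followed by Hmcn1, which encodes the matrix protein hemicentin (25.1 and 10.1 kb at P1, 19.6 and 19.004 kb at P5). The sulfotransferase gene Sult3a1 held 13.7 and 5.07 kb at P1 and 11.2 and 9.17 kb at P5. First in control was the potassium channel gene Kcnq3, with 18.4 kb in control and 7.13 kb in Alb-D2KO at P1, and 16.1 and 17.5 kb at P5. The tyrosine phosphatase gene Ptpn4 held 18.96 and 8.97 kb at P1, and 17.7 and 16.5 kb at P5. Of the 15 leading genes higher in Alb-D2KO, 12 were covered more in Alb-D2KO at P5, and of the 15 higher in control, 5 were covered more in control. Among the 12, Skint4, Skint9, Skint3, Gm12814 and Gm12823 lie in the 1 Skint stretch. Others were near ties at P5, such as Gm20711 with 9.65 and 9.59 kb. Of all 9835 windows tested, a different unit from gene bodies, 55.9% were covered more in Alb-D2KO at P5. Gm4847 kept its direction, with 4.24 kb in Alb-D2KO against 11.4 kb in control at P1, and 5.16 and 8.77 kb at P5. The choline transporter gene Slc5a7 turned, from 6.23 and 13.7 kb to 10.9 and 6.97 kb.

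In peaks with a −log10 p above 2 the ranking within bodies was led by other genes, and none of its 15 genes higher in Alb-D2KO was a Skint gene. Gm49692 came first, with 99.8 kb in Alb-D2KO against 43.4 kb in control at P1, and 110.5 and 70.3 kb at P5. With all listed peaks its body held 109.7 and 102.6 kb at P1. The peaks listed under Gm49697, named above, span mostly this same body, so the locus was nearly alike with all listed peaks but not above the limit. Nlrp4e, of a family of innate immune genes, held 48.2 and 12.7 kb at P1 and 29.9 and 27.3 kb at P5. First in control was Naaladl2, with 68.0 kb in control and 18.3 kb in Alb-D2KO at P1, and 39.3 and 75.5 kb at P5. Of the 15 genes higher in Alb-D2KO, 10 were covered more in Alb-D2KO at P5, and of the 15 higher in control, 3 were covered more in control. Of all 2265 windows tested at this limit, again a different unit from gene bodies, 50.1% were covered more in Alb-D2KO at P5.

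The vomeronasal, olfactory, zinc finger and cytochrome P450 families were covered nearly alike when all listed peaks were counted. The clustered protocadherins, also chosen as known H3K9me3 territory, differed more and are described below. Gene lists were taken over annotated bodies, and the share is that of their summed length. All 51014 genes together were covered over 10.5% in Alb-D2KO and 10.4% in control, with 15.5% of them covered more in Alb-D2KO, 15.9% more in control and a median difference of 0. Vomeronasal receptor genes (557) stood at 68.3 and 67.6%, with 190 covered more in Alb-D2KO and 180 more in control. Olfactory receptor genes (1395) stood at 43.7 and 42.5%, with 541 and 494. Zinc finger genes (405) stood at 23.8 and 23.6%, with 112 covered more in Alb-D2KO and 120 more in control, and cytochrome P450 genes (131) at 29.7 and 28.3%, with 39 and 37. The median difference was 0 in all 4 families, but members with no peak in either list, or with equal cover, count as 0. A peak was found in 515 vomeronasal, 1154 olfactory, 244 zinc finger and 78 cytochrome P450 genes. In peaks with a −log10 p above 2, vomeronasal genes stood at 28.3% in Alb-D2KO and 24.8% in control. At that limit olfactory genes stood at 3.38 and 3.52%, zinc finger genes at 13.84 and 13.88%, and P450 genes at 3.50 and 4.06%. Control scaled to the total cover of Alb-D2KO turned the ratio from 1.01 to 0.989 in vomeronasal and from 1.01 to 0.986 in zinc finger genes. With the 2-fold rule inside bodies, 1 of the 221 olfactory genes tested was called in each direction. Of 209 vomeronasal, 124 zinc finger and 39 cytochrome P450 genes tested, 0 were called.

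Smaller families differed somewhat more. The major urinary protein genes, 22 genes of a chromosome 4 cluster that adult liver expresses, stood at 42.1% in Alb-D2KO and 36.6% in control, with 11 covered more in Alb-D2KO and 9 more in control. The clustered protocadherins, adhesion genes of neurons, stood at 35.1 and 38.3%. Of these 56 genes, 13 were covered more in Alb-D2KO and 40 more in control. Of the 31 with enough cover to be tested, 0 were called higher and 4 lower in Alb-D2KO. Their bodies overlap, so that 1 difference counts in many members: all 12 alpha genes and 15 of 22 gamma genes were covered more in control. At P5 the gamma genes were reversed, with 14 covered more in Alb-D2KO and 5 more in control, while 9 alpha genes were covered more in control and 3 more in Alb-D2KO. The ratio of Alb-D2KO to control cover over all 56 was 0.915 with all listed peaks and 1.22 in peaks with a −log10 p above 2. The 5 Tdpoz genes had the widest gap of any list, 30.2 and 12.3% at P1 and 34.2 and 14.1% at P5, on a summed length of 11.4 kb. In the adult they stood at 3.65% in Alb-D2KO and 17.6% in control. The cover at P1 was 3.435 kb in Alb-D2KO against 1.394 kb in control. These genes lie in the stretch of chromosome 3 already described for its difference at P1, so their lead among the lists is not separate support. Speer genes, a testis-expressed family, were at 26.6 and 30.5%, with 3 of 14 covered more in Alb-D2KO and 9 more in control.

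**Figure D5:**
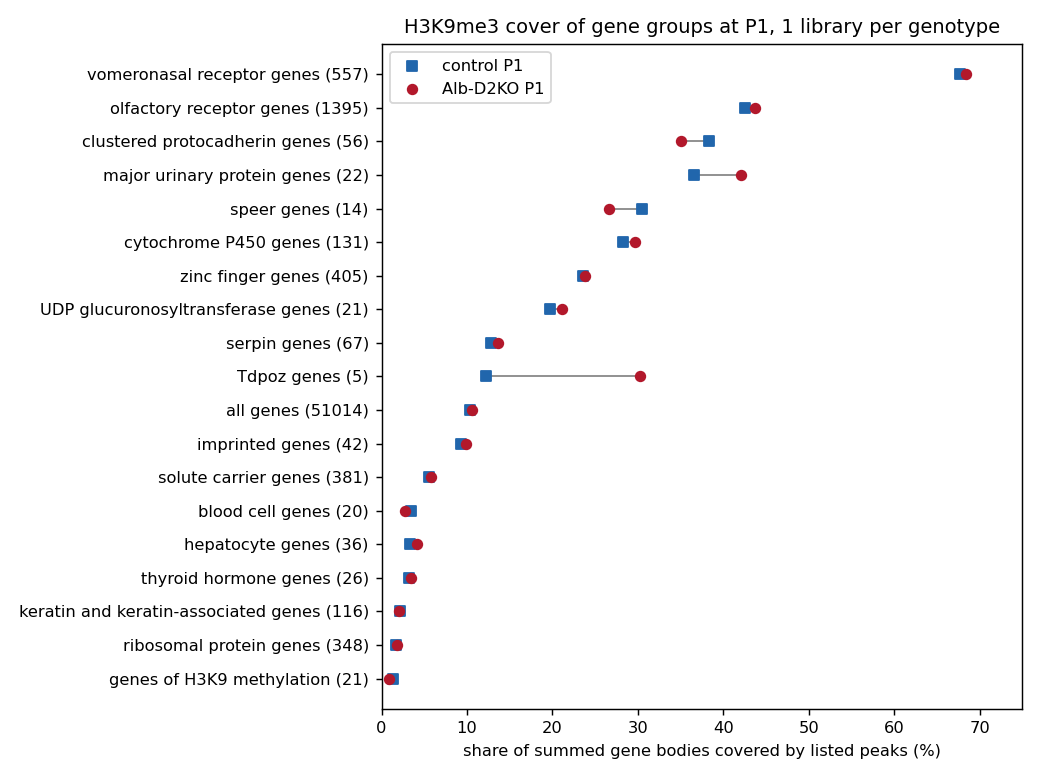
Share of summed gene bodies covered by listed peaks at P1 (x axis, %) for 18 gene lists and all genes (y axis, number of genes in brackets), with circles for Alb-D2KO and squares for control. The ribosomal list takes in S6 kinase genes. The 2 symbols nearly coincide in most lists. The 5 Tdpoz genes, from a stretch chosen after its values were seen, stand at 30.2 and 12.3%.

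The lists of thyroid hormone genes and of hepatocyte genes stood below all genes together in both genotypes. Thyroid hormone genes (26) were covered over 3.44% in Alb-D2KO and 3.16% in control, with 5 covered more in Alb-D2KO and 8 more in control. Only 5 of them had enough cover to be tested, and 0 were called. Dio2 itself (chr12:90724552-90738438) held 0 kb in Alb-D2KO against 0.638 kb in control, and peak lists do not show whether its floxed part was deleted. Thrb, which encodes a T3 receptor, held 17.6 and 13.3 kb of its 378 kb, and 23.9 and 18.98 kb at P5. The anion transporter genes Slco1a1 and Slco1a4 held 17.9 and 13.1 kb, and 11.7 and 12.9 kb, and the body of Slco1a1 is 39.7 kb long. The corepressor gene Ncor1 held 0 and 1.15 kb.

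Hepatocyte genes (36) stood at 4.19 and 3.38%, and most of that cover was in Cyp3a11, a drug-metabolizing P450, with 17.6 and 13.3 kb. Alb, the albumin gene that drives the Cre, held 0.916 and 0 kb, and Afp, the fetal albumin relative, 0 and 0.656 kb. Blood cell genes (20), which mark the blood-forming cells of newborn liver, stood at 2.76 and 3.42%. Imprinted genes (42) stood at 9.84 and 9.29%, of which Snrpn, with 120 and 111 kb, was covered most. Genes of H3K9 methylation and of DNA methylation (21, with Dnmt1, Dnmt3a and Dnmt3b among them) stood at 0.931 and 1.38%. Of the 5 of these that were covered at all, Mphosph8, Pphln1, Morc2a and Kdm4c were covered more in control and Kdm4d more in Alb-D2KO. Only 2 hepatocyte, 1 blood cell, 7 imprinted and 1 H3K9 methylation genes reached the mean body cover of 5 kb needed for the 2-fold rule. Of these, 0 were called. Over all genes, 32 (0.942%) and 35 (1.03%) of the 3398 tested were called.

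In the remaining lists the shares were closer. Serpin genes were at 13.7 and 12.8%, UDP glucuronosyltransferase genes at 21.2 and 19.8%, solute carrier genes at 5.74 and 5.54%, keratin genes at 2.01 and 2.16%, and genes with symbols beginning Rpl or Rps, which take in S6 kinase genes beside ribosomal protein genes, at 1.78 and 1.70%. With 1 library per genotype, differences of this size could not be set against any spread between replicates.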

How the data were processed

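The authors aligned reads to mm10 with BWA in Partek Flow, called broad peaks with MACS2 over the respective input at p < 0.05 and annotated them with GENCODE M24. Per the file headers, the deposited lists give each peak's position, −log10 of the p-value and q-value, fold enrichment (a linear ratio over input) and pileup signal, averaged over the peak. The same limit of −log10 p was applied to both lists, and scores of the lists are printed side by side. Such scores depend on depth, which is unknown, and were not scaled between lists. The deposited comparison lists, called on 1 library over the other, hold the authors' own result in 1 direction and were not used.

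The listed end was read as 1 base past the peak. Peaks of a list were merged to their union, and covered bases were summed per window, per listed gene name and per gene body (GENCODE M21, same build; 96.4% of 18709 names matched to 1 gene). Tests need replicates; here calls were folds of cover, with a filter on the mean of both lists. Intervals cover counting error only. For mapping, 20 stretches of 100 bases per window were aligned to the reference chromosomes with minimap2 (version 2.31-r1302, short-read preset); the windows mapped were those tested above the limit of 2, named windows and every 12th other. Stretches with no alignment were counted with those of quality 0. The cover functions were tested on simulated intervals. The members and lists were chosen with earlier results of these data known. Named windows and genes were the 10 with the largest difference among those called, in each direction and for each measure, the 5 most alike among the 100 with the most cover, Dio2, Alb, the members of the lists, and the 3 strongest peaks of each kind; items outside this rule are said to be chosen after their values were seen. Python 3.11.15 with pandas 2.3.3 and pysam 0.24.0 was used.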

Additional observations from a re-analysis of the deposited data

How the results depend on the processing

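No paired analysis was possible because each genotype had 1 library at P1 and no result came from a test. Counts are given as higher in Alb-D2KO, then higher in control, and the cause of each move was not tested beyond what the setting itself fixes. With all listed peaks, windows (8 and 4) became 103 and 84 at 1.5-fold, 0 and 0 at 3-fold, 28 and 16 with 0.2 times the added length and 5 and 0 with 2 times. They became 5 and 0 with 2 times the minimum cover, 17 and 2 with the 200000 strongest peaks of each list, 85 and 68 in windows of 50 kb and 0 and 0 in windows of 1 Mb. Those higher in control became 7 with 0.5 times the minimum cover, 8 with peaks merged within 1000 bp and 1 on a grid moved by 50 kb. With peaks above the limit of 2, windows (524 and 369) became 310 and 219 at 3-fold, 1022 and 868 with 0.5 times the minimum cover, 213 and 119 with 2 times, 1376 and 1162 in windows of 50 kb, and 6 and 2 in windows of 1 Mb. Requiring also 1.5-fold with all listed peaks, an alternative chosen after seeing the data, left 2 and 1. Genes by name (693 and 587) became 1145 and 975 at 1.5-fold, 384 and 316 at 3-fold, 1217 and 1039 with 0.5 times the minimum, 307 and 266 with 2 times, and 32 and 35 inside gene bodies. Above the limit of 2, genes (632 and 591) became 403 and 356 with 2 times the minimum and 291 and 274 inside bodies. The Jaccard index of covered bases was 0.454 with all listed peaks and 0.273 above the limit of 2. Above that limit, the ratio of Alb-D2KO to control cover became 2.02 in blood cell genes, 0 in major urinary protein genes, 1.57 in solute carrier genes and 2.13 in genes with symbols beginning Rpl or Rps, all on a small cover. It also turned in direction in protocadherins (0.915 to 1.22), serpin (1.07 to 0.755), UDP glucuronosyltransferase (1.07 to 0.766), cytochrome P450 (1.05 to 0.862), olfactory receptor (1.03 to 0.959) and zinc finger genes (1.01 to 0.997). Scaling control to the total cover of Alb-D2KO changed no count by over 1.5 times. Of 138 alternative values, 88 stayed within the stated range. Depth is unknown, so a window without a peak may lack the mark or the reads to show it.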
